A study of Mus musculus with 16 samples.

Results

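The nuclear genes for subunits of respiratory complexes II to V were examined in the gastrocnemius muscle of mice that carried a tumor, were trained, or both. Members were chosen by symbol alone, as every gene in the count table whose symbol was Sdha, Sdhb, Sdhc, Sdhd or Cyc1 or began with Uqcr, Cox4, Cox5, Cox6, Cox7, Cox8 or Atp5. This gave 48 of 35415 genes, with 4 in complex II, 9 in complex III, 18 in complex IV and 17 in complex V. The symbols of complex V are the older ones that the deposited tables use, so that Atp5b, for example, is now called Atp5f1b.

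Polyadenylated RNA was sequenced from 16 male, wild-type BALB/c mice that were 8 weeks old at purchase, with 4 mice in each group. The C group had no tumor and was not trained. The E group had no tumor and ran on a treadmill for 4 weeks. The T group carried a subcutaneous tumor of CT26 cells and was not trained. The TE group carried the same tumor and was trained for 4 weeks from the day after inoculation. The CT26 line comes from a colon carcinoma of this mouse strain. The tumor lay under the skin of the hind limb. Mice without a tumor received saline under anaesthesia, and untrained mice stood on a treadmill that did not move. A TE mouse of the study grew no tumor, and the sources used here do not say whether it was sequenced. All libraries carry the same batch label.

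Complexes II, III and IV pass electrons from succinate and ubiquinol to oxygen in the inner mitochondrial membrane, and complex V, the ATP synthase, uses the proton gradient that results to make ATP. Complex II is built entirely from nuclear genes and is also an enzyme of the tricarboxylic acid cycle, whereas complexes III, IV and V also need subunits from the mitochondrial genome. Several complex IV subunits exist as a form named for liver, found in most tissues, and a form named for heart and skeletal muscle. The c ring of complex V is encoded by several genes whose mature proteins are identical. In skeletal muscle these complexes are abundant in slow and fast oxidative fibers, and their content is known to rise with endurance training.

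Library totals ranged from 35628211 to 37635741 counts. All 8 markers of skeletal muscle were detected, with a sum of 111763 to 128399 CPM over the libraries (CPM, in which TMM factors bring all libraries to the same total). Of the 48 members, 46 passed the filter on low counts among 14749 genes tested. Cox7b2 and Cox8c, forms of complex IV subunits known from testis, had 0 counts in every library, where 3 counts would be at most 0.0842 CPM. The members held 2.19% ± 0.0828 of all counts in the C group, 2.09% ± 0.0566 in the E group, 2.096% ± 0.0872 in the T group and 2.097% ± 0.0492 in the TE group (SD, n = 4 mice each). Complex V held 1.06% to 1.11% of the counts on average in a group, complex IV 0.483% to 0.515%, complex III 0.355% to 0.373% and complex II 0.181% to 0.191%. In bulk muscle, fewer cells of a type cannot be told apart from less RNA in each cell.

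Of the 48 members, all were placed in the GENCODE M39 annotation of GRCm39, on 18 chromosomes. Exons of 32 of them share bases with another annotated gene, and the strand setting of the counting is not given in the sources used here, so reads of such partners cannot be told apart. Sdhc, at chr1:170954732-170978223 on the minus strand, shares no exon bases with another gene, and neither do Cox7b at chrX:105055638-105066240, Atp5j2 at chr5:145120505-145128872 or Cox4i2 at chr2:152595625-152606959. Cox7a2l, at chr17:83765970-83824759 on the minus strand, shares exon bases with Eml4 on the opposite strand. Cox6c (chr15:35923634-35938392) does so with Vps13b and Atp5h (chr11:115305263-115311342) with Kctd2. Processed pseudogenes are known for many genes of this kind and could share reads with them.

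The promoters of isoform genes are shown because the forms named for liver and for muscle differ in level. RefSeq promoters on GRCm38.p6, from 250 bases before the start to 50 after it, were at hand for 36 of the 48 members. Cox6a2, the muscle partner of Cox6a1, had none, so that pair is shown by its liver form alone. The first 3 stretches belong to forms named for liver and the next pair to forms named for muscle. The last belongs to the ATP synthase gene Atp5k, which is in no isoform pair and holds the NRF1 motif. Each stretch holds the 250 bases before the start, written in the direction of the gene. Capitals mark the NRF1 motif, a palindrome that holds the core GCATGCGC, and CCGGAAG or its reverse complement (an ETS motif, as bound by GABPA).
Cox6a1: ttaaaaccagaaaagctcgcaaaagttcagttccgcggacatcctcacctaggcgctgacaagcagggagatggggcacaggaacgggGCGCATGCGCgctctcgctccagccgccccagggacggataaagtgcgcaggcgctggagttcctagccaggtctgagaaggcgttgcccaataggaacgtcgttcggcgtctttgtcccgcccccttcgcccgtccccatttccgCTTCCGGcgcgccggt
Cox7a2: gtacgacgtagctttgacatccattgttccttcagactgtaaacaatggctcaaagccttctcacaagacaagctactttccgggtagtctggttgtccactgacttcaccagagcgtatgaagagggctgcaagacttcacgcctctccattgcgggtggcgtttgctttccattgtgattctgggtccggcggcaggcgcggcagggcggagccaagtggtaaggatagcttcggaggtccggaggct
Cox8a: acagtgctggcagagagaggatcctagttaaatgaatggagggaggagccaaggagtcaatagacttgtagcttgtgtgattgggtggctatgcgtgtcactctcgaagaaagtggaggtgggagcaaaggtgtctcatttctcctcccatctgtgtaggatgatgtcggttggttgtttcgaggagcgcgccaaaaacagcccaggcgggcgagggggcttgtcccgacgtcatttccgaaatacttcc
Cox7a1: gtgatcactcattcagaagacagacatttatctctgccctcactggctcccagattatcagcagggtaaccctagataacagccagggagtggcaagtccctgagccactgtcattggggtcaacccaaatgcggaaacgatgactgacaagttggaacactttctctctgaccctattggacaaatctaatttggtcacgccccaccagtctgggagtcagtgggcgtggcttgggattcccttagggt
Cox8b: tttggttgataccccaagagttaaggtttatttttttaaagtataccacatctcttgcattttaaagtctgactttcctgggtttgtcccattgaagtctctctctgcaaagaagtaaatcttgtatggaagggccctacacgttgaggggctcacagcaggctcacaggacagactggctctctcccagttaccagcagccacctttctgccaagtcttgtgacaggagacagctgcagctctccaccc
Atp5k: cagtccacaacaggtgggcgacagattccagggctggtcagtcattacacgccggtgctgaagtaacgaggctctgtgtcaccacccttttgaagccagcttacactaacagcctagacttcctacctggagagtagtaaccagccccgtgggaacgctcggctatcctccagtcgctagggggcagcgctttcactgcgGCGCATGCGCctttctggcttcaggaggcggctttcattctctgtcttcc
Cox6a1 lies on the minus strand at chr5:115348959-115349208, Cox7a2 on the minus strand at chr9:79759854-79760103, and Cox8a on the minus strand at chr19:7217617-7217866. Cox7a1 lies on the plus strand at chr7:30183921-30184170, Cox8b on the minus strand at chr7:140900447-140900696, and Atp5k on the minus strand at chr5:108434400-108434649. The NRF1 motif begins 162 bases before the start in Cox6a1 and 50 before it in Atp5k, and an ETS motif begins 16 bases before the start of Cox6a1. An ETS motif of Cox8a begins 5 bases before the start and runs past it, so it carries no capitals. The stretches of Cox7a2, Cox7a1 and Cox8b held none of the motifs searched.

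Both strands were searched over the whole window of 250 bases before and 50 after the start, and 27025 genes in the table served as background. The NRF1 motif was found in 4 of the 36 members (11.1%) and in 1.07% of all genes, in Atp5g2, Atp5k, Cox6a1 and Uqcrc1. Its core GCATGCGC, which lies within it, was found in 7 members (19.4%) and in 3.05% of all genes. The ETS motif was found in 13 members (36.1%) and in 9.93% of all genes, in each of the complexes. AAGGTCA, a motif of the estrogen-related receptor ESRRA, was found in 5 members (13.9%) and in 5.38% of all genes. AAGATGGC, a motif of YY1, was found in 3 members (8.33%), Atp5j, Atp5j2 and Atp5pb of complex V, and in 3.19% of all genes. The motif of the muscle factor MEF2 was found in Cox5b alone (2.78%) and in 4.23% of all genes. A match of letters is a description of the sequence and shows no binding.

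Levels of different genes were compared as the deposited FPKM, which divide the counts by gene length and library total. The complexes overlapped in level, with a median over their genes of 506 FPKM in complex V, 447 in complex III, 406 in complex IV and 268 in complex II. The subunits of complex II were close to each other, with Sdhb, the iron-sulfur subunit, at 378 FPKM, Sdha, the flavoprotein, at 287, and the membrane anchors Sdhc and Sdhd at 249.8 and 233 (means over 16 libraries). The highest gene of complex II was 1.62-fold above the lowest, and that of complex III 2.95-fold, from the small subunit gene Uqcr10 at 686 FPKM to Uqcrq at 233. In complex V the spread was 17.5-fold, from Atp5b, the catalytic beta subunit, at 1535 FPKM to Atp5j, a subunit of the peripheral stalk, at 87.7. Atp5b was in place 27 among all genes by FPKM. Complex IV had a spread of 21.2-fold among 14 genes, without its rarest forms, from Cox4i1 at 1177 FPKM to Cox6a1 at 55.6. The length that links the counts to the FPKM was 4137 bases for Atp5j and 3153 for Cox5a (138 FPKM), so a long annotated transcript lowers their FPKM.

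**Figure D1:**
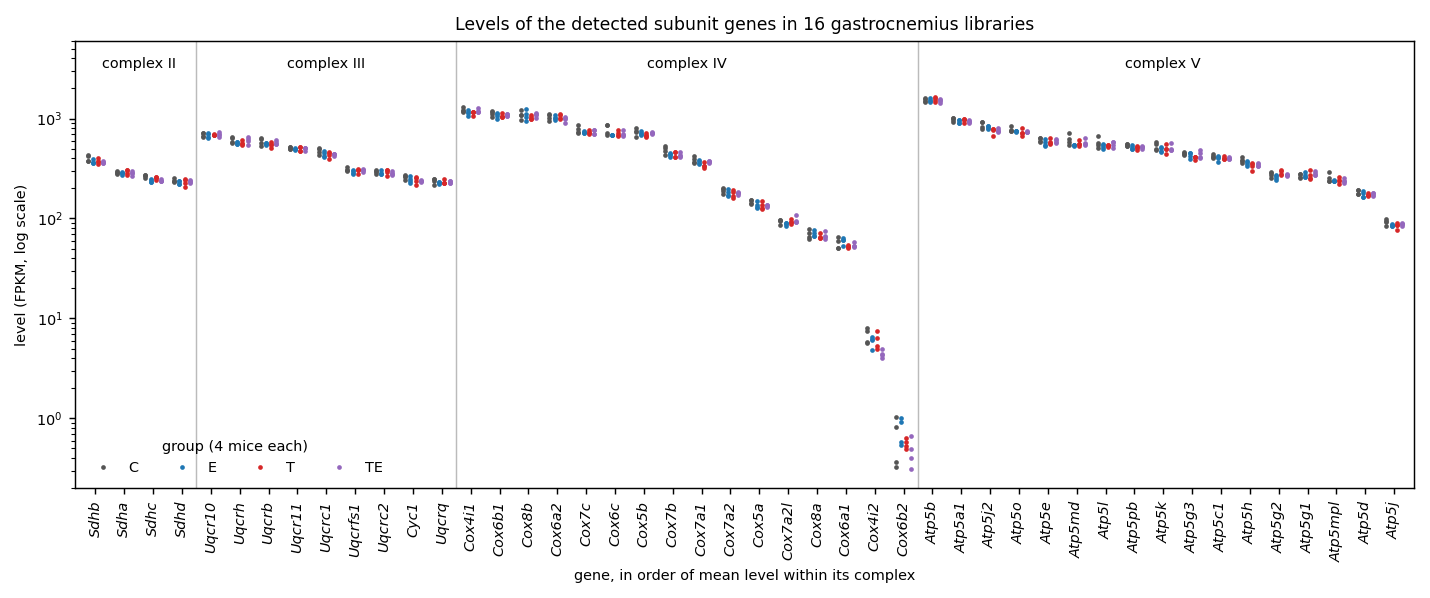
Level of the 46 members with enough counts, in FPKM on a log axis, grouped by complex; each point is 1 of the 16 mice, coloured by group. The points of a gene lie close together, whereas genes of complexes IV and V differ widely, from 1535 FPKM for Atp5b down to 5.78 for Cox4i2 and 0.606 for Cox6b2.

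The members varied little between mice of the same group. The SD of log2 CPM within groups had a median of 0.087 over the 46 members, 0.193 over the 14749 genes tested and 0.11 over the 4081 genes tested that were at least as abundant as the lowest of the abundant members. Over all 16 libraries the coefficient of variation of FPKM lay between 3.51% for Uqcr11 and 8.88% for Cox6a1, apart from Cox4i2 at 20.8% and Cox6b2 at 37.9%. Cox6b2 had 7 to 23 counts in a library.

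The muscle-type forms of complex IV subunits were above their partners. Cox6a2, the muscle form, was at 1021 FPKM and Cox6a1, the form found in most tissues, at 55.6, an 18.4-fold difference. Cox8b was at 1069 FPKM and Cox8a at 68.4, a 15.6-fold difference. The pair Cox7a1 and Cox7a2 was far closer, at 365 and 182 FPKM, so that the liver-type form Cox7a2 held 33.3% ± 1.31 of the pair (SD over 16 mice). Cox4i2, a form known from lung and from oxygen-sensing cells, held 0.492% ± 0.112 of its pair with Cox4i1. Cox6b2, known from testis, was 1789-fold below Cox6b1. In the c ring, Atp5g3 gave 44.03% of the summed FPKM, Atp5g2 28.0% and Atp5g1 28.0%.

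**Figure D2:**
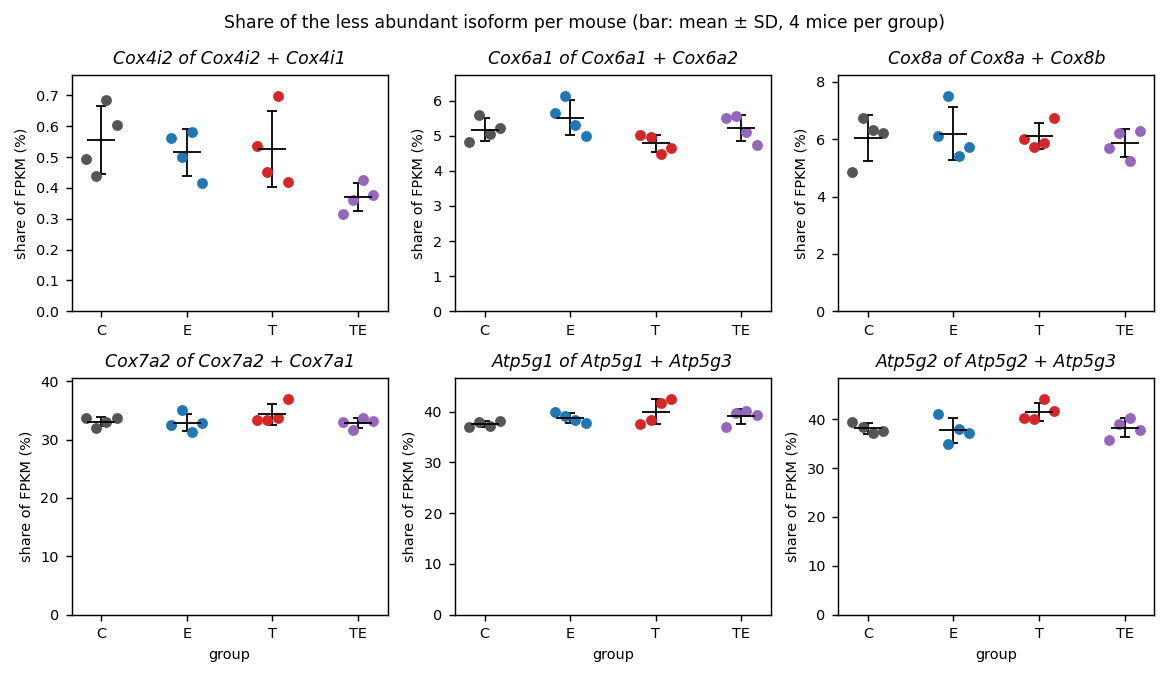
Share of the minor form in the summed FPKM of each isoform pair, in percent, with a point for each mouse and the group mean and SD. The groups overlap for most pairs; the share of Atp5g2 beside Atp5g3 was 40.1% to 44.1% in the T mice and 37.1% to 39.5% in the C mice.

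Whether tumor or training moved the balance of forms was tested with an exact permutation test on the log2 ratio of FPKM, two-sided, for 6 pairs in 4 comparisons, and p-values were adjusted over the 24 tests by the Benjamini-Hochberg method. No ratio passed after adjustment, and the smallest adjusted p was 0.342. The ratio of Atp5g2 to Atp5g3 was above that of the C group in the T group by 0.20 on the log2 scale, the groups did not overlap, and the exact permutation p was 0.0286, which is the smallest that 4 mice against 4 can give. The share of Atp5g2 in that pair was 41.5% ± 1.87 in the T group and 38.1% ± 1.06 in the C group (SD, n = 4 each). The ratio of Cox4i2 to Cox4i1 was lower in the TE group than in the T group by 0.49 and than in the E group by 0.48, and both exact permutation p-values were 0.0571. The liver-type share of the Cox7a pair was 33.1% ± 0.823 in the C group, 32.9% ± 1.52 in the E group, 34.3% ± 1.74 in the T group and 32.9% ± 0.856 in the TE group, and these ranges overlapped. The ratio of Cox6b2 to Cox6b1 was not tested, because Cox6b2 had fewer than 10 counts in a library.

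The effect of training in mice without a tumor was tested by comparing the E group with the C group. Of the 46 members tested, 44 were lower in the E group and 2 higher, while 49.4% of all genes tested were lower. The median log2 fold change was -0.12 for the members, a difference of -7.88%, and 0.0033 for all genes. In the quasi-likelihood test of edgeR, adjusted over all genes by the Benjamini-Hochberg method, 0 members passed an adjusted p of 0.05, where 0.0881% of all genes tested passed. At the unadjusted p of 0.05, 8 members (17.4%) were lower and 0 higher in edgeR, where 5.67% of all genes tested were lower and 8.51% higher. DESeq2 called 1 member, Sdhc, with an adjusted p of 0.0264, where it called 1.95% of all genes for which it gave an adjusted p.

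The complexes had close medians in this comparison, and no test compared them. The median log2 fold change was -0.13 in complex II, -0.12 in complex III, -0.12 in complex IV and -0.12 in complex V, with 4 of 4, 9 of 9, 14 of 16 and 17 of 17 members lower. Without the first C mouse the medians of complexes III and IV were -0.072 and -0.076, and without the third C mouse those of all 4 complexes lay between -0.17 and -0.15. The members that were higher were Cox6a1 at 0.044 and Cox6b2 at 0.23. The 40 subunits of complex I, the entry point for electrons from NADH, had a median of -0.11, 38 of them lower and 9 lower at the unadjusted p in edgeR. Of these subunits 1 passed the unadjusted p without the first C or the first E mouse, 2 without the second C mouse and 21 without the third.

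Sdhc, a membrane anchor of complex II that helps to bind ubiquinone, had the smallest p-value among the members and was lower at the unadjusted p. Its level was 338, 350.0, 337 and 350.5 CPM in the C mice and 293, 314, 283 and 312 CPM in the E mice. Every E mouse was below every C mouse. The T mice had 349, 345, 312 and 346 CPM and the TE mice 307, 313, 328 and 304 CPM. The T mice were near the C mice apart from the third, and the TE mice were between the E and C means. The log2 fold change of Sdhc between the E and C groups was -0.20 (SE 0.056, 95% interval -0.31 to -0.079, edgeR, adjusted p = 0.153).

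The other subunits of complex II were also lower in the E group, by smaller amounts relative to their spread. Sdhb, which carries the iron-sulfur clusters, had 419.7, 451, 395 and 461 CPM in the C mice and 373, 417, 373 and 396 CPM in the E mice. These groups overlapped, and the log2 fold change of Sdhb was -0.15 (edgeR, adjusted p = 0.327). Sdhd, the other membrane anchor, differed by -0.10 (edgeR, adjusted p = 0.484) and Sdha, which binds FAD and oxidises succinate, by -0.053 (edgeR, adjusted p = 0.731).

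In complex IV, Cox6c, a small subunit without a second form, had 447, 426, 341 and 357 CPM in the C mice and 330.3, 337, 328 and 339 CPM in the E mice. The groups did not overlap, but the C mice were spread over a range of which the lower end was just above the E mice. The log2 fold change of Cox6c was -0.24 (edgeR, adjusted p = 0.214) and that of Cox7b, another small subunit, -0.22 (edgeR, adjusted p = 0.214). All 7 subunits of complex IV without a partner form or found in every tissue were lower, with a median of -0.14. The muscle-type forms Cox6a2, Cox7a1 and Cox8b had a median of -0.050 and the liver-type forms Cox6a1, Cox7a2 and Cox8a a median of -0.0039. Cox7a2l, a factor that joins complexes III and IV into supercomplexes, had 103, 109.7, 106 and 109.5 CPM in the C mice and 94.5, 103, 95.5 and 102 CPM in the E mice. Its groups were separated by a narrow gap, and the log2 fold change was -0.12 (edgeR, adjusted p = 0.358).

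In complex V, Atp5md, a small membrane subunit also known as DAPIT that takes part in dimers of the synthase, had 237, 255, 192 and 209 CPM in the C mice and 192, 195, 189.7 and 190.0 CPM in the E mice. The third C mouse was level with the E mice. The log2 fold change of Atp5md was -0.22 (edgeR, adjusted p = 0.239). By part of the enzyme, the median log2 fold change was -0.14 for 5 accessory subunits of the membrane part, -0.13 for 4 subunits of the peripheral stalk, -0.10 for 5 subunits of the catalytic head and -0.093 for the 3 genes of the c ring. The groups did not overlap for 3 of the 46 members, Sdhc, Cox6c and Cox7a2l, all lower in the E group, as was the case for 4.02% of all genes tested, while 5.06% of all genes were higher without overlap. In complex III, no member passed the unadjusted p in edgeR, and Uqcrc1, a core protein, had the smallest p with a log2 difference of -0.14 (edgeR, adjusted p = 0.386).

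**Figure D3:**
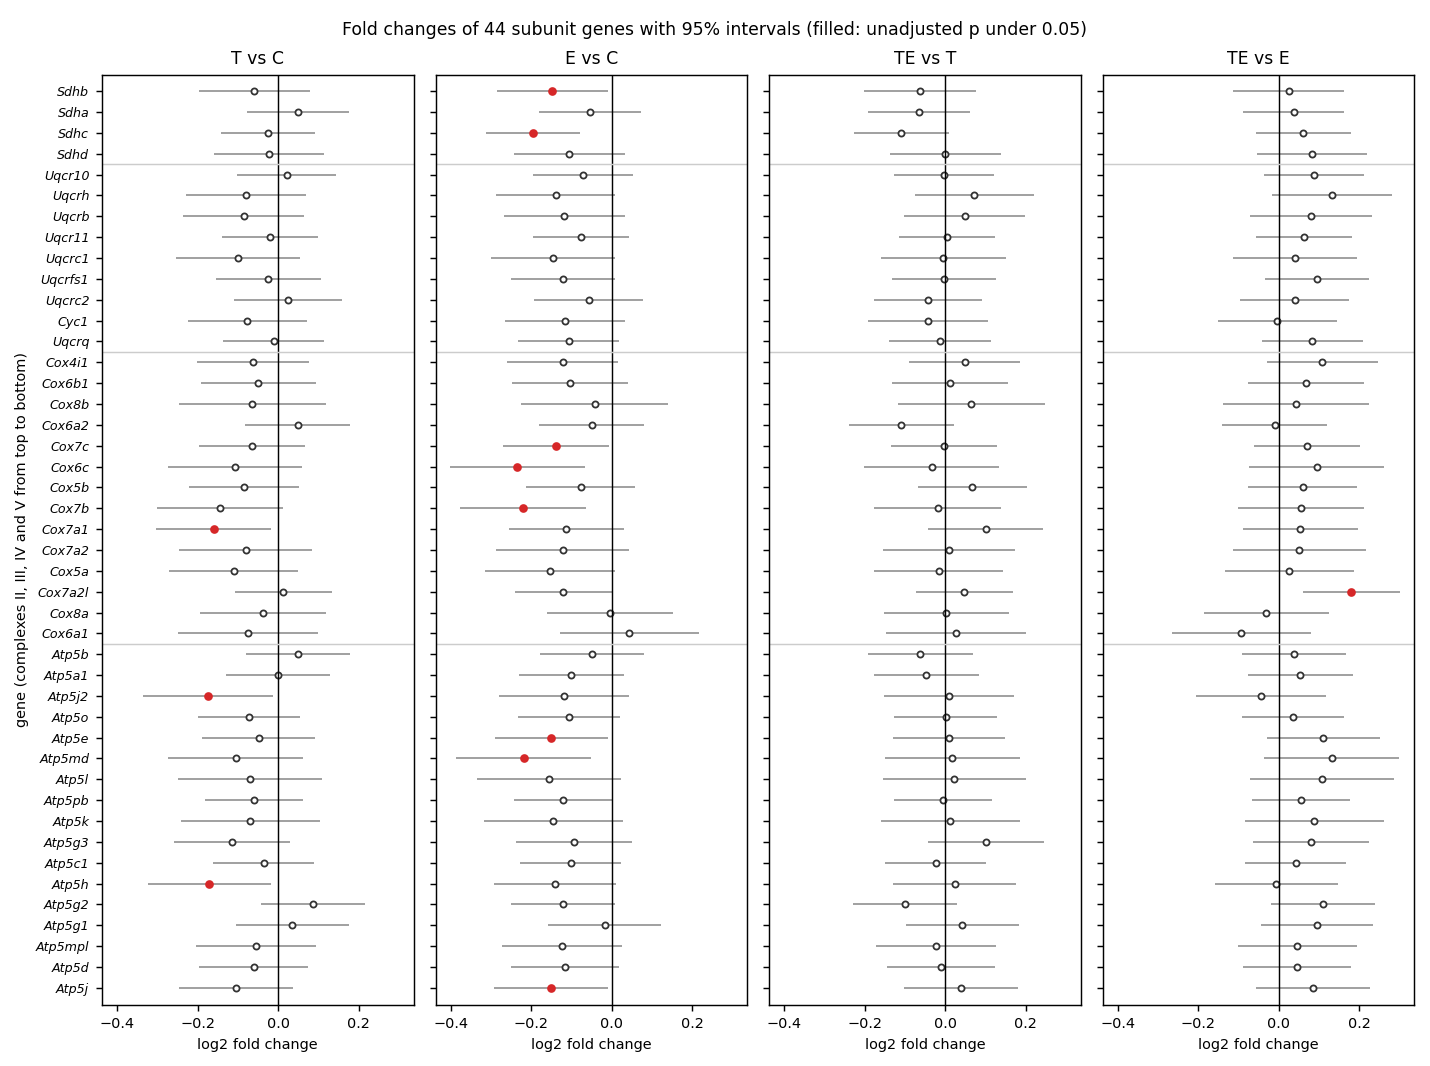
Log2 fold change of the 44 abundant members with its 95% interval from edgeR in T compared with C, E compared with C, TE compared with T and TE compared with E, ordered by complex; filled points have an unadjusted p under 0.05. In E compared with C nearly all points lie below 0, in TE compared with T they scatter on both sides of 0, and no interval leaves the range of a 1.5-fold difference.

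The counts at the unadjusted p depended on single mice. With the second C mouse left out, 3 members were lower at the unadjusted p in the E group, as were 4.81% of all genes, and with the third C mouse left out 27 were, with 6.88% of all genes. The count was 5 without the first E mouse (5.65% of all genes) or without the third (4.99%). It was 14 without the second E mouse (4.37%) and 15 without the third T mouse (6.83%), which enters through the shared estimate of the spread. Between 42 and 45 of the 46 members were lower with any mouse left out. When libraries were scaled to 8 skeletal muscle genes, an alternative chosen after seeing the data, the members' median was -0.040 with 34 of 46 lower. The median of all genes moved to 0.079. Such a scaling moves all genes nearly alike, so the gap of 0.12 between the members and all genes could not change with it.

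Other markers differed between the E and C groups in the same comparison. Myh4, Myh1, Tnnt3, Mylpf and Tnni2 are in both the skeletal muscle and the fast fiber list, so the counts of these lists overlap. Of 8 skeletal muscle markers 7 were lower (median -0.10 on the log2 scale), as were 9 of 10 fast fiber markers (median -0.11) and 7 of 10 slow fiber markers (median -0.12, but 0.17 without the fourth C mouse). The summed level of fast fiber markers was 108979 to 114829 CPM in the C mice and 96532 to 110587 CPM in the E mice. All 10 adipocyte markers were higher in the E group, by a median of 1.39 on the log2 scale (0.67 without the second E mouse, with 8 of 10 higher), with a summed level of 475 to 802 CPM against 414 to 595 CPM in the C mice. Of 8 endothelial markers 7 were higher with a median of 0.31, and their sum was 837 to 946 CPM in the E mice and 660 to 814 CPM in the C mice. Their part in the result was not tested.

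The effect of the tumor in untrained mice was tested by comparing the T group with the C group. Of the members, 38 were lower in the T group and 8 higher, while 50.3% of all genes tested were lower. The members' median log2 fold change was -0.063, a difference of -4.28%. In edgeR 0 members passed the adjusted p, where 0.678% of all genes tested passed, and DESeq2 also called 0. By the unadjusted p, 3 members were lower (6.52%) and 0 higher in edgeR, where 5.96% of all genes were lower and 8.23% higher, so the share lower was near that of all genes. The median was -0.024 in complex II, -0.024 in complex III, -0.078 in complex IV and -0.061 in complex V. For no member did the T and C groups separate, where 2.83% of all genes were lower and 4.03% higher without overlap. Complex I had a median of -0.065, with 7 of 40 subunits lower at the unadjusted p in edgeR. That median was -0.025 without the third T, -0.043 without the first C and -0.11 without the third C mouse, and the count ran from 3 without the second to 13 without the third C mouse.

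The members with the smallest p-values in this comparison were Atp5h, Cox7a1 and Atp5j2. Atp5h, subunit d of the peripheral stalk, had 266, 278, 241 and 260.0 CPM in the C mice and 238, 243, 199 and 248.6 CPM in the T mice. Its log2 fold change was -0.17 (edgeR, adjusted p = 0.288), and the third T mouse was the lowest. Cox7a1, the muscle form of subunit VIIa, had 190.0, 190.3, 161 and 169.7 CPM in the C mice and 164, 172, 144 and 156 CPM in the T mice, a difference of -0.16 on the log2 scale (edgeR, adjusted p = 0.29). Atp5j2, a membrane subunit of complex V, had 409, 392, 327 and 354 CPM in the C mice and 349, 341, 283 and 342 CPM in the T mice. Its log2 fold change was -0.17 (edgeR, adjusted p = 0.312). Without the third T mouse the log2 fold changes of Atp5h and Atp5j2 were both -0.11. For each of these genes the highest T mouse was above the lowest C mouse.

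The c ring genes stood on different sides of 0 between the T and C groups. Atp5g3 was at 642, 633, 594 and 627 CPM in the C mice and at 607, 578, 531 and 589 CPM in the T mice, a log2 fold change of -0.11. Atp5g2 was at 194, 182, 163 and 174 CPM in the C mice and at 189, 179, 194 and 195 CPM in the T mice, a log2 fold change of 0.086. Neither passed the unadjusted p in edgeR. In complex II, Sdha had 828, 800.2, 841 and 829 CPM in the C mice and 863, 891, 770.3 and 887 CPM in the T mice, so that the T mice lay on both sides of the C mice.

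The third T mouse was the lowest of its group in the mean of every complex. Without it the members' median log2 fold change was -0.027, the medians of complexes II, III and V were 0.022, 0.0087 and -0.028, and 0 members passed the unadjusted p in edgeR. The C mice also moved the median, which was -0.036 without the first, -0.039 without the second and -0.097 without the third of them. That of complex IV was -0.047 without the second C mouse and -0.12 without the third. That count was also 0 without the first or without the second C mouse, and it was 8 without the third C mouse, where 5.87% of all genes were lower. It was 0 in a fit of the T and C groups alone, and 5 with libraries scaled to the 8 muscle genes, where 7.19% of all genes were lower. Among the markers, all 10 slow fiber genes were higher in the T group by a median of 0.40 on the log2 scale, and Myh2, the myosin of fast oxidative fibers, by 0.47 (edgeR, adjusted p = 0.106). The means of the slow fiber genes' log2 CPM, centred on each gene's mean over all libraries, were -0.099, -0.24, 0.53 and 1.03 in the T mice and -0.57 to 0.62 in the C mice, and without the fourth T mouse, the highest, the median was 0.047 with 5 of 10 genes higher. Of 9 neutrophil genes 8 were higher with a median of 3.38, and 5 passed the adjusted p in edgeR, with 2 without the third and 0 without the fourth C mouse. Their summed level was 9.30 to 52.2 CPM in the T mice and 1.60 to 15.1 CPM in the C mice. All 10 lymph node markers were lower in the T group, with a summed level of 4.43 to 10.1 CPM against 8.34 to 51.1 CPM in the C mice, and the third C mouse had the highest mean of the group. Of 7 erythroid markers 6 were higher, with 4 past the adjusted p in edgeR, or 2 without the third or the fourth C mouse. All 8 macrophage markers were higher with a median of 0.77 and all 8 Schwann cell and nerve markers lower with a median of -0.60, and 0 of either list passed the adjusted p in edgeR. Without the second C mouse the latter median was -0.39. Of the 8 endothelial markers 5 were higher and 3 lower, with a median of 0.29, or 0.11 without the third T mouse. The endothelial receptor Kdr, at -0.68, was the 1 marker of this list that passed (edgeR, adjusted p = 0.0457), and 0 to 2 did with 1 mouse left out. Their part in the members' values was not tested.

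**Figure D4:**
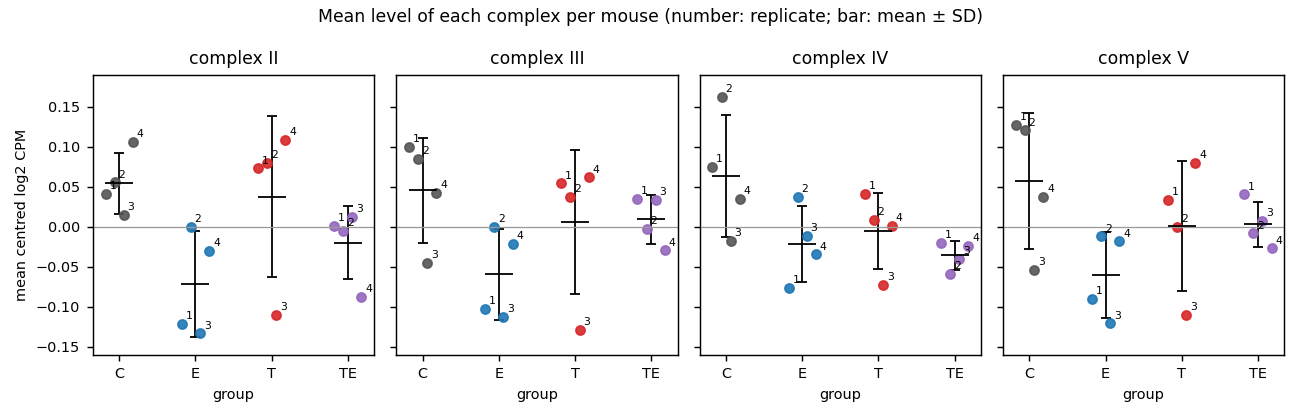
Mean over the members of each complex of log2 CPM, centred on each gene's mean over all 16 libraries, for each mouse, marked by its replicate number. In complex II the C mice (0.014 to 0.11) lie above the E mice (-0.13 to -0.00038), in the other complexes these groups overlap, and the third T mouse is the lowest T mouse in all 4 complexes.

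The effect of training in mice with a tumor was tested by comparing the TE group with the T group. The members were split evenly, 23 higher and 23 lower, where 49.5% of all genes tested were lower, and their median log2 fold change was -0.0012. In edgeR 0 members passed the adjusted p, as did 0% of all genes tested, and DESeq2 also called 0. At the unadjusted p 1 member was lower and 0 higher in edgeR, where 3.01% of all genes were lower and 2.87% higher. For no member did the TE and T groups separate, where 1.34% of all genes were lower and 1.24% higher without overlap. The medians were -0.064 in complex II, -0.0036 in complex III, 0.0057 in complex IV and 0.0087 in complex V. That of complex II was -0.11 without the third T mouse and -0.025 without the fourth TE mouse. The medians of complexes III, IV and V lay near 0 and changed sign with single mice left out, from -0.034 to 0.019 in complex III, -0.027 to 0.033 in complex IV and -0.041 to 0.036 in complex V. The T mice are the same as those compared with the C group, so the comparisons share libraries.

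Cox4i2 was the member that passed the unadjusted p in this comparison. It had 4.85, 3.90, 5.39 and 3.65 CPM in the T mice and 2.91, 3.23, 3.72 and 3.13 CPM in the TE mice. The TE mice were low, but the third of them was above the lowest T mouse. The log2 fold change of Cox4i2 was -0.45 (SE 0.16, edgeR, adjusted p = 0.747). The C mice had 4.43, 4.10, 5.72 and 5.41 CPM and the E mice 4.57, 4.39, 4.33 and 3.48 CPM. Among the subunits of complex II, Sdhc differed by -0.11 between the TE and T groups (edgeR, adjusted p = 0.852). The muscle form Cox6a2 differed by -0.11 as well (edgeR, adjusted p = 0.863).

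Without the third T mouse the members' median between the TE and T groups was -0.041, and without the fourth T mouse it was 0.027, so its sign rested on single mice. Without the third TE mouse 2 members passed the unadjusted p in edgeR. Of 10 slow fiber markers 9 were lower in the TE group (median -0.75 on the log2 scale), and their summed level was 6286 to 7601 CPM in the TE mice and 6492 to 9900 CPM in the T mice. All 10 lymph node markers were higher, with a summed level of 5.11 to 141 CPM in the TE mice. The fourth TE mouse stood apart from the others in these markers, with a mean centred log2 CPM of 4.56 against -1.55 to -1.08 in the other TE mice and -1.72 to -1.14 in the T mice. Their median log2 fold change was 5.12 with this mouse and 0.32 without it. The slow fiber median became -0.39 without the fourth T mouse. With the fourth T and the fourth TE mouse left out together, an alternative chosen after seeing the data, the members' median was 0.033. The part of these cells in the members' values was not tested.

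The effect of the tumor in trained mice was tested by comparing the TE group with the E group. Of the members, 38 were higher in the TE group and 8 lower, where 49.2% of all genes tested were lower. The members' median log2 fold change was 0.055, a difference of 3.89%. In edgeR 0 members passed the adjusted p, where 0.231% of all genes tested passed, and DESeq2 also called 0. At the unadjusted p 1 member was higher and 1 lower in edgeR, where 3.7% and 5.53% of all genes were. The medians were 0.048 in complex II, 0.080 in complex III, 0.052 in complex IV and 0.055 in complex V. Without the first E mouse the median of complex IV was 0.022 and that of the members 0.037, and without the third E mouse that of complex V was 0.037. The median of complex II was 0.031 without the third TE mouse and 0.083 without the fourth. Without the fourth E mouse the medians of complexes IV and V were 0.081 and 0.083. When libraries were scaled to the 8 muscle genes these signs turned, with a members' median of -0.060, while the median of all genes moved to -0.11 and was thus further below 0 than that of the members.

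Cox7a2l had 106, 112, 108 and 121 CPM in the TE mice, 94.5 to 103 CPM in the E mice and 102 to 113 CPM in the T mice. Every TE mouse was above every E mouse. The log2 fold change of Cox7a2l was 0.18 (SE 0.057, 95% interval 0.059 to 0.30, edgeR, adjusted p = 0.288). Cox4i2 was lower in the TE mice by 0.37 on the log2 scale (edgeR, adjusted p = 0.482), with overlapping groups. The TE and E groups did not overlap for 5 of 46 members, all higher in the TE group, where 2.68% of all genes tested were higher and 3.95% lower without overlap. These were Cox7a2l, the c ring gene Atp5g2, the membrane subunit Atp5md, the small subunit Cox7c of complex IV and the ubiquinone-binding subunit Uqcrq of complex III. Atp5md had 229.7, 211, 201 and 198 CPM in the TE mice and 189.7 to 195 CPM in the E mice, a log2 difference of 0.13 (edgeR, adjusted p = 0.659). The count at the unadjusted p was 1 without the first, the second or the third E mouse or the first or the fourth TE mouse. The E mice are the same as those compared with the C group.

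The markers of muscle and of other cells also differed between the TE and E groups. The skeletal muscle and fast fiber lists share Myh4, Myh1, Tnnt3, Mylpf and Tnni2, so their counts overlap. Of 8 skeletal muscle markers 7 were higher in the TE group (median 0.14 on the log2 scale), as were 9 of 10 fast fiber markers (median 0.12), whereas 9 of 10 slow fiber markers were lower (median -0.25, but -0.14 without the third TE and -0.16 without the fourth E mouse). All 7 erythroid markers were higher (median 1.17), 5 of them past the adjusted p in edgeR, with a summed level of 642 to 909 CPM in the TE mice and 349 to 458 CPM in the E mice. All 9 neutrophil markers were higher (median 2.13, 0 past the adjusted p and 5 past the unadjusted p in edgeR), with sums of 12.5 to 26.4 CPM against 2.35 to 5.41 CPM. All 8 Schwann cell and nerve markers were lower (median -0.40), with overlapping sums. Of the 10 adipocyte markers 9 were lower (median -0.51) and of the 10 lymph node markers 9 were higher (median 1.40). Without the fourth TE mouse all 10 lymph node markers were lower (median -3.10), and without the second E mouse the medians were -0.0078 for the adipocyte and -0.13 for the Schwann cell and nerve markers. Their part in the members' values was not tested.

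**Figure D5:**
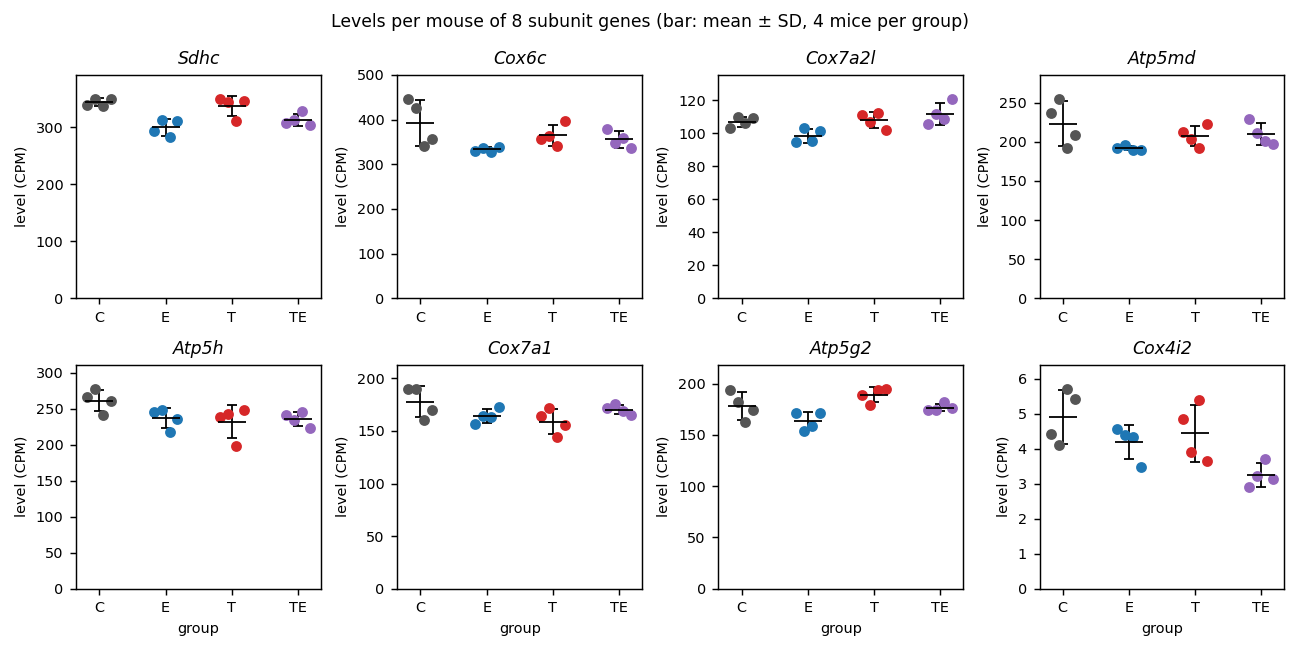
Level in CPM of Sdhc, Cox6c, Cox7a2l, Atp5md, Atp5h, Cox7a1, Atp5g2 and Cox4i2 in each mouse by group, with the group mean and SD. Sdhc, Cox6c and Cox7a2l are lower in every E mouse than in every C mouse, Cox7a2l, Atp5md and Atp5g2 are higher in every TE mouse than in every E mouse, and Cox4i2 is lowest on average in the TE group.

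Averaged over trained and untrained mice, 23 members were higher with the tumor and 23 lower, with a median of -0.00014 on the log2 scale, where 49.8% of all genes tested were lower. Without the third T mouse 11 of the 46 were lower (median 0.018), without the first C mouse 16 (median 0.020), without the fourth E mouse 15 (median 0.0062) and without the third C mouse 30 (median -0.019). In edgeR 0 passed the adjusted p, where 1.36% of all genes tested passed, and DESeq2 also called 0. Without adjustment 2 were higher and 1 lower at a p of 0.05, where 7.41% and 6.81% of all genes were. These were Cox7a2l at 0.096 (edgeR, adjusted p = 0.286), Atp5g2 at 0.098 (edgeR, adjusted p = 0.315) and Cox4i2 at -0.26 (edgeR, adjusted p = 0.304). With libraries scaled to the 8 muscle genes the median was -0.070, as was that of all genes at -0.069, and 9 members were lower at the unadjusted p in edgeR, where 14.4% of all genes were. With the usual scaling, the count of 3 became 1 without the fourth C, the first, the second or the third E, the third or the fourth T, or the fourth TE mouse. All 9 neutrophil and 6 of 7 erythroid markers were higher (medians 2.97 and 0.93), and 5 of each list passed the adjusted p in edgeR. All 8 Schwann cell and nerve markers were lower (median -0.50), with 1 past the adjusted p in edgeR, or 0 to 3 with 1 mouse left out. Of the 8 endothelial markers 5 were higher (median 0.16, or 0.060 without the third T mouse) and 3 lower. Kdr, a receptor for vascular endothelial growth factor, at -0.69 (edgeR, adjusted p = 0.00233) and Emcn, endomucin, at -0.40 (edgeR, adjusted p = 0.0189) were the 2 that passed. Their part in the members' values was not tested.

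Averaged over mice with and without a tumor, 42 members were lower with training and 4 higher, where 48.4% of all genes tested were lower. Their median log2 fold change was -0.059, a difference of -4.01%. With libraries scaled to the 8 muscle genes the median was -0.024, with 36 of 46 members lower, and the median of all genes was 0.037. In edgeR 0 passed the adjusted p, where 0.00678% of all genes tested passed. Without adjustment 6 members were lower (13.0%) and 0 higher in edgeR, where 4.8% of all genes were lower and 5.95% higher. Sdhc differed by -0.15 (SE 0.039, edgeR, adjusted p = 0.194), and DESeq2 called it with an adjusted p of 0.0216, where it called 0.735% of all genes. It was also called by edgeR without the third T mouse, at -0.17 (edgeR, adjusted p = 0.0469), where 0.695% of all genes passed. The others at the unadjusted p were Cox4i2 at -0.34, Cox6c at -0.13, Cox7b at -0.12, Atp5g2 at -0.11 and Sdhb at -0.10. Without the third T mouse 15 members were lower at the unadjusted p in edgeR, as were 6.8% of all genes, and without the third C mouse 10 were, with 4.97% of all genes. The count was 3 without the first or the second C mouse, the fourth T mouse or the fourth TE mouse, where 3.85%, 4.39%, 4.08% and 4.14% of all genes were lower. Among the markers, 9 of 10 slow fiber genes were lower with training (median -0.46 on the log2 scale), and all 10 lymph node genes (median 2.31) and all 10 adipocyte genes (median 0.60) were higher. In edgeR 0 genes of these lists passed the adjusted p, and 4, 6 and 1 passed the unadjusted p. Without the fourth TE mouse the lymph node median was 0.024 with 5 of 10 genes higher, without the second E mouse the adipocyte median was 0.32, and the slow fiber median was -0.27 without the fourth C or the fourth T mouse. Their part in the members' values was not tested.

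Whether training acted differently in mice with and without a tumor was tested as the interaction. Of the members, 40 had an interaction above 0 and 6 below it, where 50.2% of all genes were below 0, and the members' median was 0.11 on the log2 scale. In edgeR 0 members passed the adjusted p, as did 0% of all genes tested, and DESeq2 also called 0. At the unadjusted p 2 members were above 0 (4.35%) and 0 below it in edgeR, where 3.7% and 5.51% of all genes were. They were Cox7a1 at 0.21 (edgeR, adjusted p = 0.539) and Uqcrh, the hinge protein of complex III, at 0.21 (edgeR, adjusted p = 0.54). Uqcrh had 371, 347, 302 and 318 CPM in the C mice, 297, 315, 293 and 311 in the E mice, 327, 311, 293 and 336 in the T mice and 358, 307, 333 and 334 in the TE mice. The median interaction was 0.085 in complex II, 0.094 in complex III, 0.13 in complex IV and 0.12 in complex V, and 0.14 in complex I. With any mouse left out it ranged from 0.078 to 0.15 for the members. Without the third T mouse it was 0.049 in complex II, and without the third C mouse 0.15 in complex III. Without the third C mouse 12 members were above 0 at the unadjusted p in edgeR, as were 4.44% of all genes. The count was 0 without the second C, the first E or the third E mouse, 1 without the first C, the third T or the first TE mouse, and 4 without the fourth C, the second E, the fourth E or the first T mouse. With libraries scaled to the 8 muscle genes the median was 0.022, with 17 of 46 members below 0, and the median of all genes was -0.090. Among the markers, all 10 slow fiber genes (median -0.68) and all 8 macrophage genes (median -0.53) were below 0. Fast fiber genes lay on the side of the members, with 8 or 9 of 10 above 0 and medians of 0.14 to 0.23 with any mouse left out. All 10 lymph node genes were above 0 (median 6.05), with 0 past the adjusted p and 9 past the unadjusted p in edgeR. Without the fourth TE mouse, the highest in these genes, their median was 0.69 with 0 past the unadjusted p in edgeR. Without the fourth T mouse the slow fiber median was -0.29 and the macrophage median -0.34. Their part in the members' values was not tested.

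The intervals show the size of the differences that these data leave room for. Over the 44 members apart from Cox4i2 and Cox6b2, the 95% intervals of edgeR reached from -20.7% to 16.1% between the T and C groups, and from -24.3% to 16.2% between the E and C groups. They reached from -15.3% to 18.6% between the TE and T groups, and from -16.9% to 23.2% between the TE and E groups. They were widest for the interaction, from -16.7% to 38.9%, with the upper bound at Atp5md. Each of the 44 intervals lay within a 1.5-fold difference in all 7 comparisons.

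Within a mouse, the complexes were set against each other by the difference of their mean log2 CPM. The mean of complex III minus that of complex II was -0.047 to -0.018 in the T mice and 0.0027 to 0.058 in the TE mice, without overlap, and -0.064 to 0.058 in the C mice. In the E mice it was -0.00026 to 0.020, also without overlap with the T mice, which differ from them in both tumor and training. No other of the 6 pairs had groups without overlap, and this pair was picked after the values were seen. Complex V minus complex III stayed between -0.037 and 0.036 in all mice, the narrowest range of the 6 pairs. Complex IV minus complex II had the widest range, from -0.11 to 0.12. These differences are given as a description, without a test.

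Other genes of the same pathways were counted from fixed lists, and 0 of them passed the adjusted p in edgeR in the comparisons of T with C and E with C. Of 25 assembly factors of complex IV, 21 were lower in the E group compared with the C group and 4 were lower at the unadjusted p in edgeR, where 5.67% of all genes were. Without the first C mouse 1 of them passed, and the median went from -0.091 to -0.059. The lowest p among them belonged to Cox17, a copper chaperone, at -0.25 (edgeR, adjusted p = 0.197). Sdhaf1, which helps to insert the iron-sulfur clusters into Sdhb, differed by -0.29 in E compared with C (edgeR, adjusted p = 0.211) and by -0.25 in T compared with C (edgeR, adjusted p = 0.245). With any mouse left out, the median of the 4 assembly factors of complex II was -0.091 to -0.026 in E compared with C. In T compared with C it was -0.043 to 0.048. In E compared with C the median of 6 complex III factors was -0.13 to -0.078 and that of 5 complex V factors -0.062 to 0.00053. Ndufa4, a protein now placed in complex IV, differed by -0.17 in E compared with C (edgeR, adjusted p = 0.264) and by -0.15 in T compared with C (edgeR, adjusted p = 0.317). All 13 genes of the tricarboxylic acid cycle other than complex II were lower in E compared with C, with a median of -0.081 and 1 lower at the unadjusted p, against the same 5.67%.

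Ppargc1a, the coactivator of mitochondrial biogenesis, was on the other side of 0 from the members. It differed by 0.37 in E compared with C (edgeR, adjusted p = 0.153) and by 0.39 in T compared with C (edgeR, adjusted p = 0.1). Of the 10 biogenesis regulators, 6 were higher in E compared with C and 7 in T compared with C. The 6 mitochondrially encoded genes of complexes III to V had a median difference of 0.0014 in E compared with C and -0.12 in T compared with C on the log2 scale. Single mice moved both values, from -0.11 without the second to 0.13 without the third E mouse in E compared with C, and from -0.41 without the second to -0.014 without the third T mouse in T compared with C, which was -0.26 without the third C mouse. Their level in polyadenylated RNA depends on how their short tails are captured.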

How the data were processed

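Gastrocnemius RNA of 16 mice, 4 per group, was analysed from the deposited tables, with groups taken from the sample labels. Per the submitters' processing notes and the paper's methods, the authors trimmed reads with fastp 0.20.1, aligned them to GRCm39 with HISAT2 2.1.0, counted them per gene with HTSeq 0.11.2 and deposited the raw counts. The authors also deposited FPKM values, which equal these counts divided by 1 fixed length for each gene and by the library total. The strand setting and the annotation release are not given in the sources used here, so overlapping genes cannot be told apart. The tables held 0 columns of other samples and 0 entries without a gene name.

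Counts were tested with edgeR 4.0.16 in R 4.3.3 (filterByExpr, TMM, quasi-likelihood test, 1 coefficient per group over all 16 libraries), with two-sided p-values adjusted by the Benjamini-Hochberg method over the 14749 genes tested in each of 7 comparisons. TMM-scaled CPM were used between mice and FPKM between genes, and log2 CPM had a prior count of 2. The labels do not tie the libraries to litters or cages, so p-values measure the spread between these mice. Limits from counts cover counting error only. Isoform ratios were tested by exact permutation with SciPy 1.17.1, with at least 10 counts of both genes in every library. Replicate numbers stand for different mice. Over 24 pairs of same-numbered mice, deviations from group means correlated between -0.24 and 0.21, with 5 pairs over 0.1. Over 72 pairs with different numbers they correlated between -0.30 and 0.37, with 14 over 0.1. Same-numbered mice were no more alike than others in these values, but this cannot show that the numbers pair no mice.

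Members named with values were the 3 with the smallest p in a comparison, isoform partners, the highest and lowest of each complex, the complex II subunits and members with fewer than 10 counts in every library. Of the other lists, genes past the adjusted p or with the smallest p could be named, and most lists are given by counts and medians. Genes whose groups did not overlap, and Cox5a, Uqcr11 and Uqcrc1 where named, were picked after their values were seen. The members and lists were chosen with earlier results of these data known. Alternatives were DESeq2 1.42.0, its size factors, no filter, a robust fit, only the groups compared, the replicate block and each mouse left out, and, chosen after seeing the data, a scaling to 8 muscle genes, the fourth T and the fourth TE mouse left out together, and each mouse left out for the other lists. Scripts were tested on simulated data. Gene positions came from GENCODE M39 and promoters from RefSeq on GRCm38.p6. Figures were drawn with matplotlib 3.10.9.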

Additional observations from a re-analysis of the deposited data

Results flagged for a closer look

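In each group of 4 mice, the gap between the highest or lowest mouse and the nearest of the others was set against the whole range of the group, for 28 named members in FPKM and for the means of the members and of each complex. Of 132 groups checked, 8 had a mouse that stood apart, where chance gives about 1 in 20. The third T mouse stood apart in 5 of them. Its mean centred log2 CPM was -0.11 in complex II, where the other T mice had 0.073 to 0.11, and -0.13 in complex III, where the others had 0.037 to 0.061. Its Sdhc level was 243 FPKM against 255 to 263 in the other T mice, its Sdhd level 207 against 229 to 246, and its Atp5j2 level 669.6 against 772 to 787. The fourth TE mouse had 265 FPKM of Sdha, with 283 to 297 in the other TE mice, and 1443 FPKM of Atp5b, with 1509 to 1564 in the others. The first TE mouse had 466 FPKM of Cox7b, with 416 to 434 in the others. These values are given without an explanation.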

How the results depend on the processing

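No result changed sign past a test's threshold, and with the settings of the report 0 members passed the adjusted p in edgeR in any of the 7 comparisons, whereas DESeq2 called 1, Sdhc, in E compared with C and 1, again Sdhc, for training over both tumor states. Counts at the unadjusted p were less stable, and the share of all genes past it in either direction follows each in brackets. The interaction gave 2 by edgeR (9.21%), 4 with DESeq2's size factors (9.19%), 6 with DESeq2 (6.58%), 6 with the replicate block (9.51%), 0 with scaling to 8 muscle genes (9.78%) and 4 without the fourth T and the fourth TE mouse (7.72%). E compared with C gave 8 (14.2%), 14 with the replicate block (14.7%) and 2 with muscle scaling (14.0%). T compared with C gave 3 (14.2%), 5 with muscle scaling (12.5%) and 0 with only the groups compared (12.2%). Training gave 6 (10.8%), 3 with muscle scaling (9.01%) and 2 without the fourth T and TE mouse (9.6%), and TE compared with E gave 2 (9.23%) and then 1 (8.45%). The tumor over both training states gave 3 (14.2%), 1 with no filter (10.8%), 9 with muscle scaling (17.0%) and 1 without the fourth T and TE mouse (14.7%). There muscle scaling put 1 member, Atp5j2, past the adjusted p (-0.18, edgeR, adjusted p = 0.0459). With the usual scaling 1.36% of all genes passed the adjusted p in that comparison, and the share with muscle scaling is not given here. The cause of these moves was not tested. The replicate block moved no other count by over 1.5 times and changed no call at the adjusted p.

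Muscle scaling moved the median of all genes by up to -0.11. Medians of all members and of complexes II, III, IV and V then became -0.040, -0.049, -0.035, -0.036 and -0.042 in E compared with C, -0.060, -0.068, -0.036, -0.063 and -0.060 in TE compared with E, -0.070, -0.048, -0.043, -0.084 and -0.067 for the tumor, and 0.022, -0.0026, 0.0024, 0.043 and 0.027 for the interaction. The members' median for training became -0.024. Without members under 1 FPKM the median level of complex IV was 447 FPKM.

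With each mouse left out, the count at the unadjusted p ranged from 3 (12.8% of all genes, without the second C mouse) to 27 (15.3%, without the third) in E compared with C, 0 (10.6% to 12.5%) to 8 (13.7%) in T compared with C, 1 (5.11% to 7.14%) to 2 (6.96%) in TE compared with T, 1 (7.31% to 9.41%) to 2 (8.43% to 10.2%) in TE compared with E, 1 (12.0% to 14.3%) to 3 (12.7% to 13.5%) for the tumor, 3 (9.19% to 10.6%) to 15 (15.6%) for training and 0 (7.82% to 9.91%) to 12 (9.89%) for the interaction, and 0 to 1 members passed the adjusted p for training. All 560 medians from these repeats stayed within the spread between mice. Leaving out 1 mouse of 4 moves a group mean by only part of that spread, so the medians could hardly have left it. Within that spread, the sign of the members' median in TE compared with T changed with the T mouse that was left out. The depth left Cox6b2, with as few as 7 counts, without a usable ratio.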
